A study of Mus musculus with 8 samples.

Results

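The genes described here encode the enzymes and membrane proteins of the lysosome, measured by RNA sequencing in brown adipose tissue (BAT), the thermogenic fat, of mice with and without a tumour. They were taken from the count table by their symbols, 42 genes in all, and fall into 11 proteases and peptidases, 9 glycosidases, 8 genes of lipid breakdown and lipid transfer, 8 genes of membrane proteins, a channel and granulin, and 6 genes of the proton pump and its accessory proteins. Ctss, the gene of cathepsin S, was kept out of this choice because it marks macrophages. Of the 42 genes, 41 had a row among the 56953 genes of the count table, and 37 passed the low count filter and stood among the 9876 genes tested. Tmem55b had no row under that symbol, and Pip4p1, of which RefSeq gives Tmem55b as an older name, is described separately.

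The control group (CTR) held 4 wild-type C57BL/6J mice injected with PBS, and the cachexia group (CAC) held 4 wild-type C57BL/6J mice that received 3000000 Lewis lung carcinoma (LLC) cells, a mouse lung tumour line, under the skin of the right flank. All mice were 8 to 10 weeks old at injection and were monitored for 21 days. According to the methods, mice that did not develop a tumour were not included, so CAC mice were selected for tumour growth. The labels allow males or females without giving the sex of each mouse; the Y-linked gene Ddx3y stood at 65.7 ± 1.07 CPM (SD, n = 4) in CTR and 68.7 ± 4.62 CPM in CAC.

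Lysosomes are acidic organelles in which proteins, sugar chains and lipids delivered by endocytosis and autophagy are broken down. A proton pump in their membrane acidifies the lumen, soluble hydrolases work at that low pH, and heavily glycosylated membrane proteins line the inner face. Brown adipocytes use lysosomes for the turnover of mitochondria and lipid droplets, and macrophages are rich in them. The senescence-associated β-galactosidase stain, which the study applied to BAT and to cultured brown adipocytes, rests on activity of the lysosomal β-galactosidase encoded by Glb1. The comparison of CAC with CTR therefore asks here whether the transcripts of the lysosome differed in BAT.

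Library totals were 2454493 to 4827956 counts in CTR and 1823167 to 3392538 counts in CAC. Levels are in CPM, counts divided by the size of the library after TMM scaling. A gene with 0 counts in a library could have a level up to that of 3 counts, 0.66 to 1.62 CPM, a bound for counting error alone. Markers of adipocytes, brown or general, were abundant in every library, with a summed level of 17171 to 19195 CPM in CTR and 16658 to 18936 CPM in CAC. Of these 11 genes, Adipoq, Plin1, Fabp4, Lep and Retn are not restricted to brown adipocytes. CAC replicate 1 stood apart from the other CAC libraries in Gm2a, Npc2 and Ctsd, and these genes are given with and without it. Fewer cells of a type and less RNA per cell cannot be told apart in bulk tissue.

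Sequences near the start sites were read for the members because the transcription factor TFEB, a regulator of lysosomal genes, recognises the CLEAR element, whose core letters are CACGTG. RefSeq promoters of the build GRCm38.p6, from 250 bases before to 50 after each start, were matched by symbol to 35 of the 42 genes. CACGTG was searched together with its longer form TCACGTGA, which contains it, and each reads the same on both strands. CACGTG occurred in 14 of the 35 genes (40.0%), against 8.09% of 27025 genes with a promoter sequence and 12.4% of the 7261 genes that were also tested for expression. TCACGTGA occurred in 7 of the 35 genes (20.0%), against 1.12% and 2.41%. Of 81 other lysosome genes (hydrolases, membrane proteins, proton pump and delivery, without the genes that control lysosome genes), 59 had a promoter sequence. Among these, CACGTG occurred in 12 of 59 (20.3%) and TCACGTGA in 7 of 59 (11.9%), and the difference between them and the members was not tested. The motif was chosen as one known from lysosomal genes, so its share among the members is a description only. A match is a run of letters and is not evidence of binding. The 5 stretches printed here, each of 26 bases and written 5′ to 3′ on the strand of the gene, show the core in the only member with these letters and an unadjusted p below 0.05 (Naglu), in the gene of the lysosomal β-galactosidase (Glb1), in abundant members (Ctsd and Lamp1) and in the member with the largest log2 fold change (Mcoln1). Capitals mark the longer of the motifs present at that place.
Naglu, chr11:101070011-101070036, plus strand, motif from 73 bases before the start: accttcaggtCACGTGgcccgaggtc
Glb1, chr9:114401020-114401045, plus strand, motif from 48 bases before the start: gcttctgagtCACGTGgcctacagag
Ctsd, chr7:142387910-142387935, minus strand, motif from 99 bases before the start: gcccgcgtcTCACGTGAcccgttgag
Lamp1, chr8:13159106-13159131, plus strand, motif from 45 bases before the start: gtccagcgccCACGTGatgccgactg
Mcoln1, chr8:3500464-3500489, plus strand, motif from 46 bases before the start: gcgccccgcTCACGTGAccgcggcgc

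The stretches of Glb1 and Lamp1 lie upstream of the gene in GENCODE M21, while those of Ctsd and Mcoln1 lie in an exon of a longer transcript and that of Naglu crosses the first base of the gene. Lamp1 held the core at 4 places before its start. Among tested members, the 12 with CACGTG had a median log2 fold change of 0.02, with 7 positive values and 1 unadjusted p below 0.05. The 19 members with a promoter sequence but without these letters had a median of 0.16, with 15 positive values and 4 unadjusted p below 0.05. Over all tested genes, 50.0% had a positive value and 12.9% an unadjusted p below 0.05 in edgeR's test, in either direction. The difference between members with and without the letters was not tested. The 6 tested members without a sequence had a median of 0.05.

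No lysosomal gene of the 37 tested passed edgeR's quasi-likelihood test at an adjusted p of 0.05, a threshold that 0.932% of all tested genes passed, 0.739% higher and 0.192% lower in CAC. DESeq2 called 0 of the 37, and limma-trend on the deposited signal called 0 of the 36 it could test, which left out Gm2a. At an unadjusted p below 0.05, 5 members (13.5%) were higher in CAC, against 7.01% of all tested genes: Gm2a, Ctsz, Naglu, Hexa and Atp6ap2. Without CTR replicate 1 the 5 became 3, and with DESeq2 they became 4. No member was lower at that level, against 5.93% of all tested genes. Log2 fold changes were positive in 26 members (70.3%) and negative in 11, against 50.0% positive among all tested genes. Their median was 0.11, with a range from -0.28 to 0.52, beside a median of -4.67e-05 and quartiles of -0.17 and 0.17 over all tested genes, and the median was 0.07 without CTR replicate 1 or without CAC replicate 1. In 2 members, Naglu and Atp6ap2, every CAC library lay above every CTR library, which held for 3.64% of all tested genes, and in no member did every CAC library lie below, which held for 3.40%. These p-values measure the spread between the mice sequenced here.

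**Figure D1:**
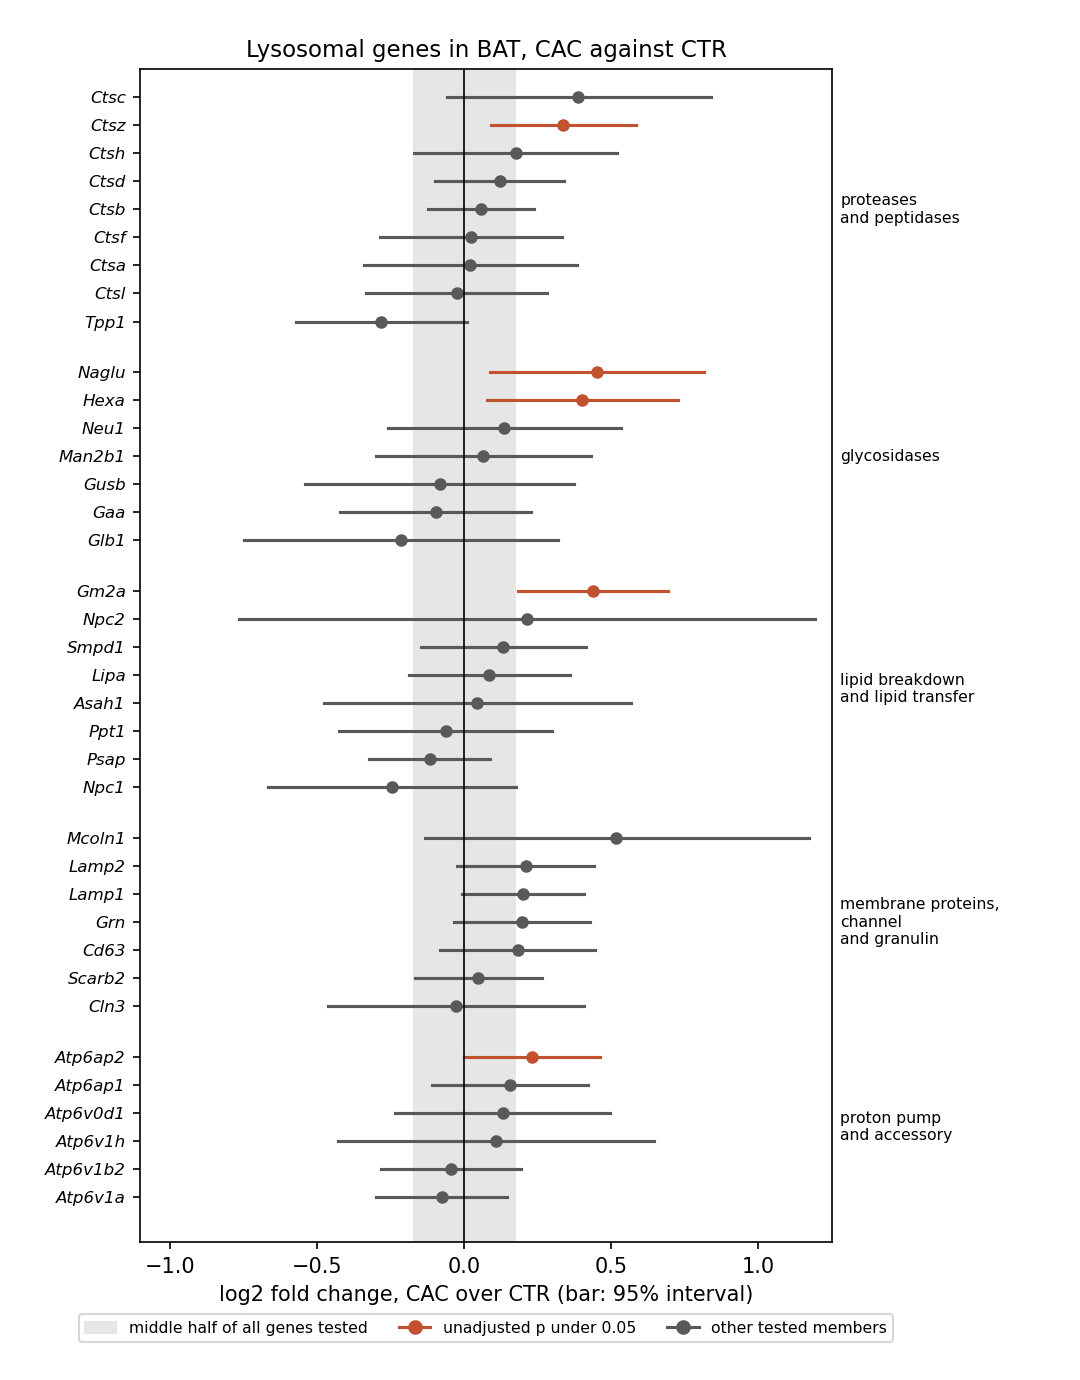
Log2 fold change of CAC over CTR (x axis) for each of the 37 tested lysosomal genes, grouped by role, with 95% intervals from edgeR as bars; the grey band runs from the lower to the upper quartile of all 9876 tested genes (-0.17 to 0.17). The 5 genes in red have an unadjusted p below 0.05 and all lie to the right of 0, while none passes the adjusted threshold.

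The 95% interval of the log2 fold change lay within a 1.5-fold difference in both directions for 28 of the 37 members and within 2-fold for 35. The intervals of Npc2 (-0.76 to 1.20) and Mcoln1 (-0.13 to 1.17) were wider. Within a library, the median deviation of the members from their CTR mean on the log2 scale was -0.03, 0.05, -0.04 and 0.03 in CTR replicates 1 to 4 and 0.04, 0.12, 0.02 and 0.06 in CAC replicates 1 to 4. The groups overlapped in this median, whose pooled SD between libraries was 0.04. CAC replicates 1 to 4 exceeded all CTR libraries in 13, 14, 11 and 9 of the 37 members, where 26.8%, 26.3%, 22.8% and 23.9% of all tested genes did so. They lay below all CTR libraries in 5, 5, 2 and 5 members, where 26.6%, 27.6%, 23.3% and 24.4% of all genes did so. The median coefficient of variation of a member was 13.3% among CTR mice and 11.5% among CAC mice.

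**Figure D2:**
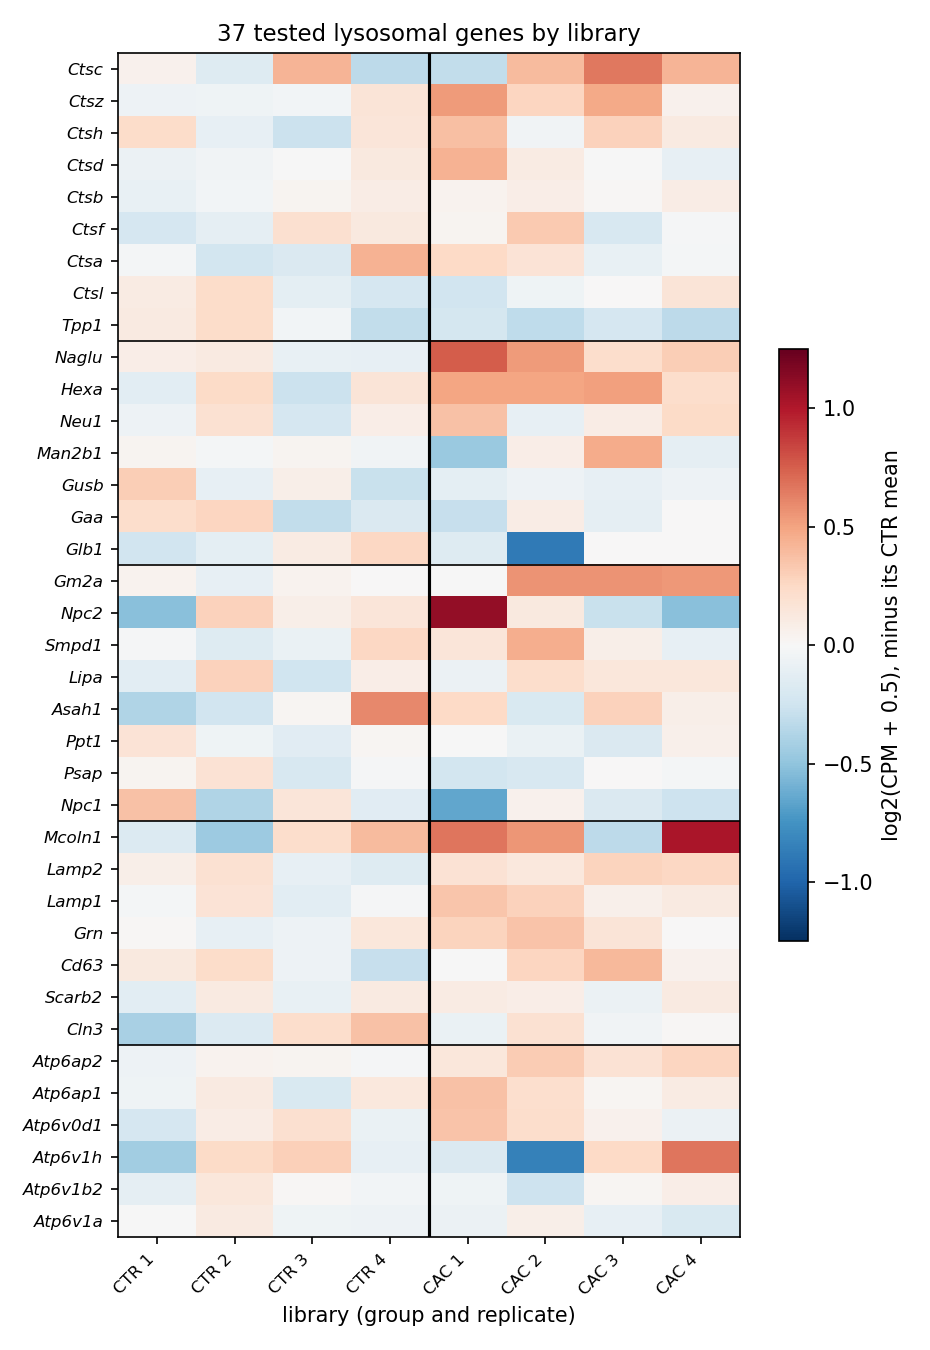
Log2(CPM + 0.5) of each tested lysosomal gene (rows, in the role groups of the fold change plot) in each library (columns), minus the mean of the CTR libraries; red is above and blue below that mean. In all 4 CAC columns 9 rows are red (Ctsb, Ctsz, Hexa, Naglu, Lamp1, Lamp2, Grn, Atp6ap1 and Atp6ap2) and 2 are blue (Tpp1 and Gusb), and Npc2 is dark red in CAC replicate 1 alone.

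Members differed widely in level. Per kilobase of merged exon in GENCODE M21, the mean CTR level was highest for Ctsd, the aspartic protease cathepsin D, at 723 CPM per kb, followed by Psap at 229.7, Npc2 at 109.9, Lamp1 at 105, Ctsb at 78.8 and Ctsz at 64.0 CPM per kb. Manba stood lowest at 0.098 CPM per kb. The library protocol is sold as a digital mRNA assay and the position of its reads along a transcript was not examined, so a level per kilobase is an approximate scale.

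Among the proteases and peptidases, 9 of 11 were tested, 7 with a positive log2 fold change, and their median was 0.06. Ctsz (ENSMUSG00000016256.11, chromosome 2, 174427493 to 174439039, minus strand of GRCm38) encodes cathepsin Z, a carboxypeptidase found in many immune cells. Its levels were 87.8, 88.4, 89.6 and 103.0 CPM in CTR and 133, 111, 128 and 95.5 CPM in CAC. CAC replicates 1, 2 and 3 lay above all CTR libraries and CAC replicate 4 lay below CTR replicate 4, so the groups overlapped. The mean was 92.2 ± 7.21 CPM (SD, n = 4) in CTR and 117 ± 17.2 CPM in CAC, with edgeR's log2 fold change at 0.34 (SE 0.12, unadjusted p = 0.00917, adjusted p = 0.204).

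Ctsc encodes cathepsin C, which activates serine proteases of leukocyte granules. It stood at 13.3, 11.5, 17.4 and 10.1 CPM in CTR and at 10.3, 17.0, 20.5 and 17.4 CPM in CAC, and edgeR's log2 fold change was 0.39 (adjusted p = 0.472). CAC replicate 3 was the highest library, and the groups overlapped. Ctsh, which encodes the aminopeptidase cathepsin H, gave 22.0, 17.3, 15.4 and 20.7 CPM in CTR and 24.3, 18.1, 22.9 and 20.2 CPM in CAC, with overlapping groups and edgeR's log2 fold change at 0.18 (adjusted p = 0.713).

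Ctsd was measured at 1617, 1644, 1696 and 1842 CPM in CTR and at 2294, 1824, 1694 and 1585 CPM in CAC. CAC replicate 1 lay far above the other libraries, and the other 3 CAC libraries lay within or below the CTR values. Its log2 fold change was 0.12 (edgeR adjusted p = 0.686) and 0.01 without CAC replicate 1. Ctsd shares 808 bases of exon with Gm49369 on the same strand, and reads there cannot be assigned to either gene with certainty.

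Ctsb, which encodes the cysteine protease cathepsin B, varied little, with 448, 466, 487 and 506 CPM in CTR and 491, 505, 481 and 509.7 CPM in CAC. The log2 fold change was 0.06, with a 95% interval from -0.12 to 0.24. Tpp1, which encodes tripeptidyl peptidase 1, had the most negative value of all members. Its levels were 40.3, 43.9, 36.5 and 30.0 CPM in CTR and 31.9, 29.8, 32.2 and 29.6 CPM in CAC, with edgeR's log2 fold change at -0.28 (SE 0.14, unadjusted p = 0.0568, adjusted p = 0.403). CTR replicate 4 lay among the CAC libraries.

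The remaining tested proteases Ctsa, Ctsf and Ctsl, with mean levels of 21.6 to 29.8 CPM in CTR, had log2 fold changes from -0.02 to 0.02. Ctsk and Lgmn, the genes of cathepsin K and legumain, did not pass the low count filter. Ctsk had 2.12 ± 0.80 CPM in CTR and 1.75 ± 1.02 CPM in CAC (exact two-sided permutation p = 0.571, n = 4), and Lgmn had 2.98 ± 1.4 and 2.36 ± 0.73 CPM (exact two-sided permutation p = 0.543, n = 4). The smallest p that 4 against 4 mice can give in this test is 0.0286.

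The glycosidases cut sugar chains, and 7 of 9 were tested, with a median log2 fold change of 0.07 and 4 positive values. Naglu (ENSMUSG00000001751.10, chromosome 11, 101070012 to 101077672, plus strand) encodes α-N-acetylglucosaminidase, which degrades heparan sulfate. It gave 15.1, 15.4, 13.3 and 13.2 CPM in CTR and 24.3, 20.7, 16.7 and 17.8 CPM in CAC. The groups did not overlap, and CAC replicate 3 came closest to CTR. Means were 14.3 ± 1.18 CPM (SD, n = 4) and 19.9 ± 3.42 CPM, with edgeR's log2 fold change at 0.45 (SE 0.17, unadjusted p = 0.0168, adjusted p = 0.258).

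Hexa (ENSMUSG00000025232.9, chromosome 9, 59539540 to 59565109, plus strand) encodes the α subunit of β-hexosaminidase A, the enzyme that degrades GM2 ganglioside. Its levels were 18.7, 24.5, 17.0 and 23.2 CPM in CTR and 29.2, 29.2, 29.6 and 24.1 CPM in CAC. CAC replicate 4 lay just below CTR replicate 2, and the other CAC libraries exceeded all CTR libraries. The mean was 20.8 ± 3.56 CPM (SD, n = 4) in CTR and 28.0 ± 2.65 CPM in CAC, with edgeR's log2 fold change at 0.40 (SE 0.16, unadjusted p = 0.0177, adjusted p = 0.262). Hexa shares 255 bases of exon with Tmem202 on the opposite strand, and whether the counting used strand is not given in the sources used here.

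Glb1 (ENSMUSG00000045594.11, chromosome 9, 114401076 to 114474898, plus strand) encodes the lysosomal β-galactosidase. It gave 6.12, 6.66, 7.88 and 8.82 CPM in CTR and 6.49, 3.72, 7.33 and 7.32 CPM in CAC. CAC replicate 2 was the lowest library, on 7 counts, and the other 3 CAC libraries lay inside the CTR range. The means were 7.37 ± 1.22 CPM (SD, n = 4) and 6.21 ± 1.71 CPM, and edgeR's log2 fold change was -0.21 with a 95% interval from -0.75 to 0.32 (edgeR adjusted p = 0.787). Glb1 shares 165 bases of exon with Tmppe on the same strand. Ctsa, Ctsb, Ctsl, Ctsz, Cln3, Grn, Lamp1, Npc1, Ppt1, Atp6v1h and Pip4p1 share exon bases with a gene on the opposite strand, up to 1742 in Ctsl and 877 in Pip4p1, and Ctsl also shares some with the pseudogene Gm49230 on its own strand, so their counts may hold reads of those genes.

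Neu1, the gene of a lysosomal sialidase, had 11.5, 13.8, 10.4 and 12.8 CPM in CTR and 15.7, 11.2, 12.9 and 14.3 CPM in CAC, and edgeR's log2 fold change was 0.14 (adjusted p = 0.826). The groups overlapped. Gaa, Gusb and Man2b1, which encode acid α-glucosidase, β-glucuronidase and an α-mannosidase, had log2 fold changes of -0.10, -0.08 and 0.07, with mean CTR levels of 30.4, 9.59 and 21.1 CPM. Below the filter, Gla had 1.12 ± 0.58 CPM in CTR and 0.53 ± 0.38 CPM in CAC (exact two-sided permutation p = 0.143, n = 4), and Manba had 0.69 ± 0.12 and 0.44 ± 0.37 CPM (exact two-sided permutation p = 0.286, n = 4). Both stood near the level of 3 counts, and neither difference passed the test.

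**Figure D3:**
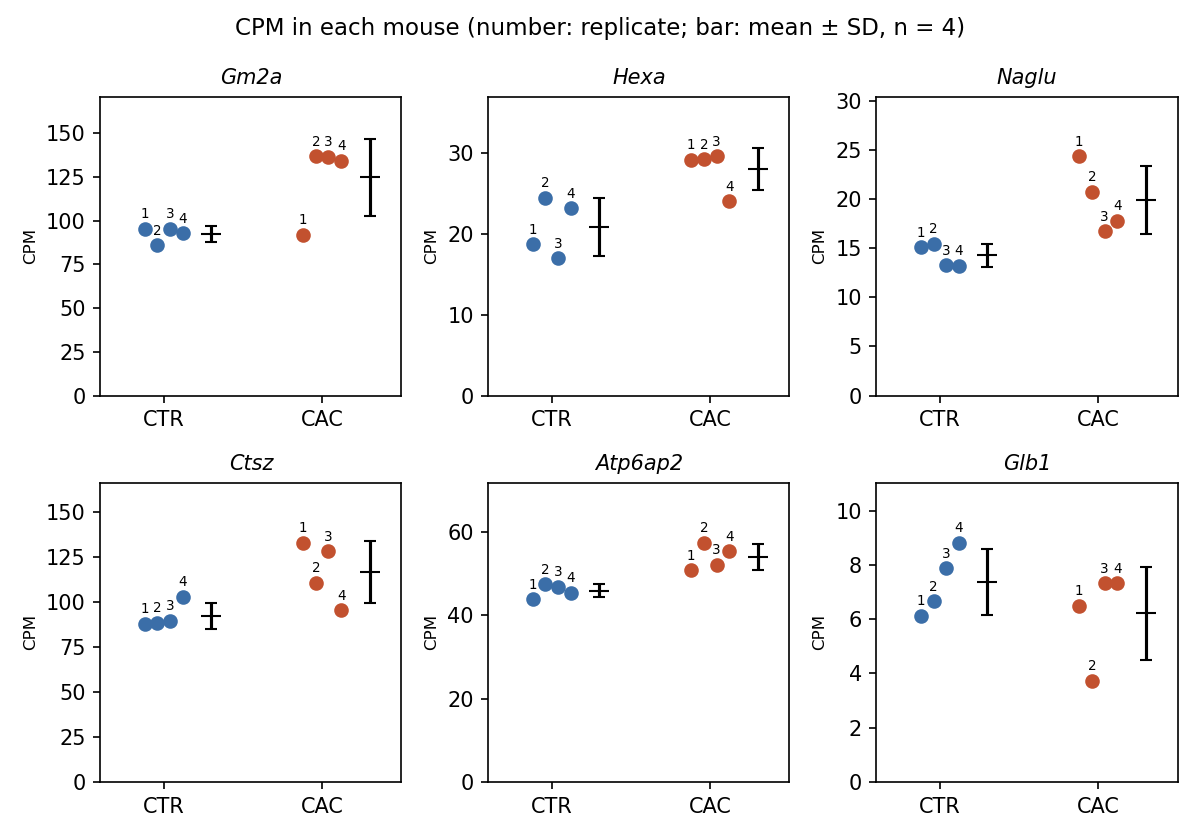
CPM of Gm2a, Hexa, Naglu, Ctsz, Atp6ap2 and Glb1 in each mouse (points, numbered by replicate) of the CTR and CAC groups, with the mean and SD (n = 4) beside the points; each y axis starts at 0. In Naglu and Atp6ap2 the groups are apart, and in Gm2a CAC replicate 1 (91.9 CPM) lies among the CTR points.

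All 8 genes of lipid breakdown and lipid transfer were tested, with a median log2 fold change of 0.07 and 5 positive values. Gm2a (ENSMUSG00000000594.8, chromosome 11, 55098115 to 55113029, plus strand) encodes the GM2 activator, which lifts GM2 ganglioside out of the membrane and presents it to β-hexosaminidase A. It had the smallest p of all members. Its levels were 95.4, 86.0, 95.4 and 92.8 CPM in CTR and 91.9, 136.7, 136.5 and 134 CPM in CAC. CAC replicate 1 lay at the CTR level, and the other 3 CAC libraries lay close together well above it. The mean was 92.4 ± 4.43 CPM (SD, n = 4) in CTR and 125 ± 22.0 CPM in CAC, with edgeR's log2 fold change at 0.44 (SE 0.12, unadjusted p = 0.00172, adjusted p = 0.0956). Without CAC replicate 1 the log2 fold change was 0.56 and passed the threshold (edgeR adjusted p = 0.00621), and in the other 7 fits that left out 1 library it did not. The range over these 8 fits was 0.39 to 0.56, with adjusted p up to 0.254 in edgeR.

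Npc2 and Npc1 encode the soluble and the membrane protein that together export cholesterol from lysosomes. Npc2, which is given because of its spread after its values had been seen, was measured at 408, 715, 617 and 651 CPM in CTR and at 1257, 638, 482 and 407 CPM in CAC. CAC replicate 1 was far above every other library, and the groups overlapped. Its log2 fold change was 0.22 (edgeR adjusted p = 0.886) and turned to -0.23 without CAC replicate 1 (adjusted p = 0.759 in edgeR). Npc1 had 21.2, 12.5, 18.3 and 14.8 CPM in CTR and 10.3, 17.0, 14.4 and 13.6 CPM in CAC, and edgeR's log2 fold change was -0.24 (adjusted p = 0.664). CAC replicate 1 was lowest in Npc1.

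Psap encodes prosaposin, the precursor of the saposins that help sphingolipid hydrolases. It stood at 641, 710.0, 547 and 622 CPM in CTR and at 534, 545, 628 and 618 CPM in CAC, with overlapping groups, a log2 fold change of -0.12 and a 95% interval from -0.32 to 0.09. Smpd1, the gene of acid sphingomyelinase, had 50.7, 45.8, 48.6 and 61.7 CPM in CTR and 57.3, 70.7, 53.9 and 47.8 CPM in CAC. CAC replicate 2 was the highest library, and the log2 fold change was 0.13 (edgeR adjusted p = 0.737). Lipa encodes lysosomal acid lipase, which hydrolyses cholesteryl esters and triglycerides. It gave 39.6, 53.0, 36.5 and 46.1 CPM in CTR and 41.1, 50.5, 47.8 and 47.8 CPM in CAC, all of the latter inside the CTR range, with a log2 fold change of 0.09 and a 95% interval from -0.19 to 0.36. Asah1 and Ppt1, the genes of acid ceramidase and palmitoyl-protein thioesterase 1, had log2 fold changes of 0.05 and -0.06.

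The group of membrane proteins, the channel and granulin had the highest median of the 5 role groups, 0.20, and 6 of its 7 tested genes had positive values, although none reached an unadjusted p below 0.05 in edgeR's test. Lamp1 and Lamp2 encode the most abundant glycoproteins of the lysosomal membrane. Lamp1 had 274, 315, 254 and 276 CPM in CTR and 356, 340.3, 292 and 301 CPM in CAC. CAC replicates 3 and 4 lay below CTR replicate 2, and the log2 fold change was 0.20 (standard error 0.10, edgeR unadjusted p = 0.0562, adjusted p = 0.402). Lamp2, on the X chromosome, had 80.2, 87.1, 71.4 and 68.3 CPM in CTR and 86.5, 84.0, 92.6 and 91.3 CPM in CAC, and edgeR's log2 fold change was 0.21 (unadjusted p = 0.0747, adjusted p = 0.445). CTR replicate 2 overlapped the CAC libraries.

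Grn encodes progranulin, which is cut to granulins in lysosomes. It was measured at 92.1, 85.0, 87.1 and 100.8 CPM in CTR and 110.3, 116, 102.0 and 91.3 CPM in CAC, and edgeR's log2 fold change was 0.20 (adjusted p = 0.481), and CAC replicate 4 lay inside the CTR range. Cd63, the gene of a tetraspanin of late endosomes and lysosomes, had 109, 118, 95.9 and 82.2 CPM in CTR and 100.0, 121, 134 and 104 CPM in CAC, and edgeR's log2 fold change was 0.18 (adjusted p = 0.584). The groups overlapped in both genes.

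Mcoln1 encodes the lysosomal calcium channel TRPML1 and had the largest log2 fold change of all members on 12 to 30 counts per library. Its levels were 4.32, 3.46, 5.81 and 6.61 CPM in CTR and 8.11, 7.44, 3.81 and 10.5 CPM in CAC. CAC replicate 3 lay among the lower CTR libraries and the other 3 CAC libraries above all of them. The log2 fold change was 0.52 (standard error 0.31, edgeR adjusted p = 0.518) and ranged from 0.26 to 0.79 when each library was left out. Scarb2 and Cln3, which encode the membrane proteins LIMP-2 and battenin, had log2 fold changes of 0.05 and -0.03. Pip4p1, the newer name of Tmem55b, encodes a lysosomal phosphoinositide phosphatase and stood at 20.6 ± 3.21 CPM (SD, n = 4) in CTR and 23.3 ± 3.39 CPM in CAC, and edgeR's log2 fold change was 0.17 (adjusted p = 0.735).

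Of the proton pump genes, all 6 were tested, with a median log2 fold change of 0.12 and 4 positive values. Atp6ap2 (ENSMUSG00000031007.3, X chromosome, 12587801 to 12617049, plus strand) encodes an accessory protein of the pump that is also known as the prorenin receptor. It had 43.9, 47.4, 46.9 and 45.4 CPM in CTR and 50.8, 57.4, 52.2 and 55.4 CPM in CAC. The lowest CAC library was above the highest CTR library. Means were 45.9 ± 1.58 CPM (SD, n = 4) and 54.0 ± 3.02 CPM, with edgeR's log2 fold change at 0.23 (SE 0.11, unadjusted p = 0.0484, adjusted p = 0.379).

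Atp6ap1, the gene of the other accessory protein, had 36.7, 41.3, 33.2 and 41.7 CPM in CTR and 49.2, 44.1, 38.7 and 40.8 CPM in CAC, and edgeR's log2 fold change was 0.16 (adjusted p = 0.659). CAC replicates 3 and 4 lay inside the CTR range. Atp6v0d1, which encodes a subunit of the membrane sector, had 13.3, 16.5, 17.8 and 14.6 CPM in CTR and 20.0, 18.1, 16.1 and 14.6 CPM in CAC, and edgeR's log2 fold change was 0.13 (adjusted p = 0.816). Atp6v1a encodes the catalytic subunit, and had 93.2, 100.9, 90.05 and 89.3 CPM in CTR and 88.7, 98.4, 86.7 and 81.6 CPM in CAC. The groups overlapped in both, and the log2 fold change of Atp6v1a was -0.08, with a 95% interval from -0.30 to 0.15. Atp6v1b2 and Atp6v1h had values of -0.04 and 0.11.

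Summed over the role groups, the level of the membrane proteins, channel and granulin was 687, 759, 650 and 690.3 CPM in CTR and 811, 821, 758 and 751 CPM in CAC, and CAC replicates 3 and 4 lay just below CTR replicate 2. The sum of the proteases was 2309 to 2601 CPM in CTR and 2343 to 3067 CPM in CAC, with the highest value in CAC replicate 1, of which Ctsd made 2294 CPM. The sum of the lipid genes was 1279 to 1644 CPM in CTR and 1293 to 2016 CPM in CAC, also highest in CAC replicate 1, where Npc2 made 1257 CPM. Glycosidases gave 106 to 127 and 123 to 134 CPM, and the proton pump genes 267 to 306 and 287 to 295 CPM. In every role group the sums of CTR and CAC overlapped.

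**Figure D4:**
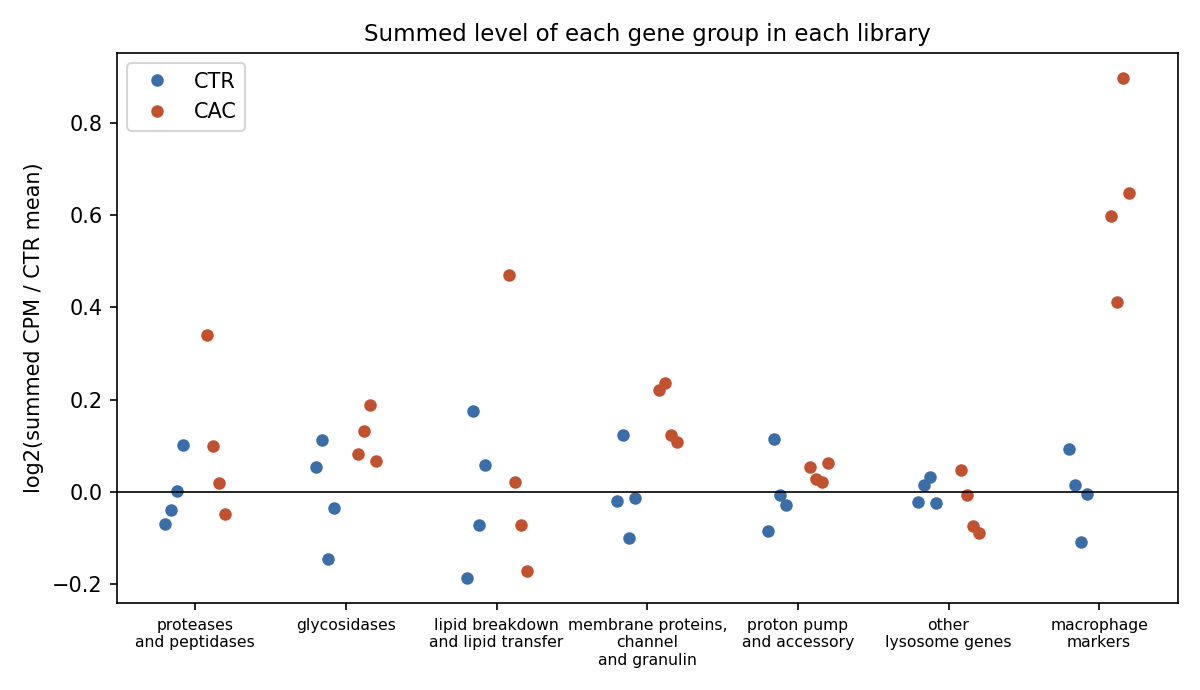
Summed CPM of each gene group in each library, as the log2 ratio to the mean of the CTR libraries (y axis), for the 5 role groups of lysosomal genes, the 100 other lysosome genes and the 19 macrophage markers; each point is a library. CTR and CAC points overlap in all lysosomal groups, and the macrophage markers lie at 256 to 295 CPM in CTR and 368 to 515 CPM in CAC.

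Lists of 100 further lysosome genes were read from the same fit, of which 83 were tested. One of them passed the adjusted threshold, against 0.932% of all tested genes, and it was lower in CAC. Pcyox1, which encodes prenylcysteine oxidase 1, had 40.3, 40.7, 33.6 and 32.0 CPM in CTR and 17.8, 23.4, 26.4 and 24.1 CPM in CAC. Every CAC library lay below every CTR library. Pcyox1 fell in CAC, from a mean ± SD of 36.7 ± 4.52 to 22.9 ± 3.62 CPM over 4 mice each, with edgeR's log2 fold change at -0.65 (SE 0.15, adjusted p = 0.0348). It no longer passed when any of CTR replicates 1 and 2 and CAC replicates 1, 2 and 4 was left out and with library size normalization, with log2 fold changes of -0.74 to -0.56 over the 8 fits that left out a library and adjusted p up to 0.125 in edgeR. The 83 genes had 39 positive and 44 negative values and a median of -0.03, beside 26 positive and 11 negative values and a median of 0.11 in the members.

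The list of other hydrolases also holds Pcyox1, which is an oxidase, and 22 of its 30 genes were tested. After Pcyox1 the smallest p belonged to Plbd2 (log2 fold change 0.29, edgeR adjusted p = 0.371) and Idua (0.45, adjusted p = 0.472). Of the other membrane proteins and transporters, 24 of 26 were tested and none was called, with the smallest p in Mfsd1 (-0.42), Tmem192 (-0.46) and Slc36a1 (-0.73), at edgeR adjusted p of 0.271, 0.276 and 0.318. Of the other proton pump subunits, 11 of 16 were tested and none was called, with Atp6v1g1 at -0.20, Atp6v0c at 0.17 and Atp6v0a1 at -0.18. All 9 genes of mannose 6-phosphate and sortilin delivery, which bring hydrolases to the lysosome, were tested and none was called, with Gnptg at 0.73 (edgeR adjusted p = 0.286), Sort1 at -0.25 and Gga3 at 0.41. Of the genes that control lysosome genes, the TFEB family and the docking complex of mTORC1, 17 of 19 were tested and none was called, with Rraga at -0.31, Fnip1 at 0.32 and Mtor at -0.22. The summed level of the 19 genes was 718 to 786 CPM in CTR and 689 to 717 CPM in CAC, so every CAC library lay below every CTR library, by under 1 CPM at the nearest pair, while the sums of the other 4 of these lists overlapped. Tfeb itself stood at a log2 fold change of 0.04 (adjusted p = 0.960 in edgeR). At an unadjusted p below 0.05 in edgeR's test, 2 of the 83 genes were higher and 7 were lower, against 7.01% and 5.93% of all tested genes.

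**Figure D5:**
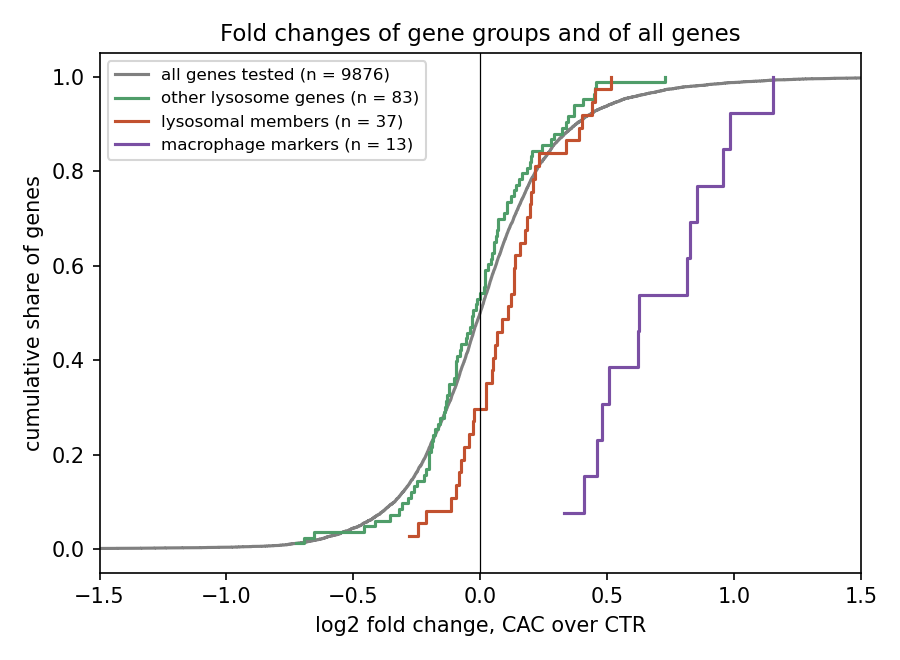
Cumulative share of genes (y axis) against the log2 fold change of CAC over CTR (x axis) for all 9876 tested genes, the 83 other lysosome genes, the 37 lysosomal members and the 13 macrophage markers tested. The curve of the members lies to the right of the curve of all genes below a log2 fold change of about 0.2, with medians of 0.11 and -4.67e-05, and that of the macrophage markers has a median of 0.62.

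Macrophages and neutrophils carry many lysosomes, so the markers of these and other cells are given beside the members. Of 19 macrophage markers, 13 were tested, all 13 had positive values with a median log2 fold change of 0.62, and 4 rose at the adjusted threshold, against 0.739% of all tested genes. They were the complement genes C1qa (mean ± SD of 42.8 ± 6.13 against 76.3 ± 8.29 CPM, edgeR adjusted p = 0.00103) and C1qb (30.8 ± 5.59 to 61.1 ± 12.4 CPM, adjusted p = 0.00137) and the receptor adaptors Fcer1g (8.76 ± 2.29 to 19.5 ± 4.65 CPM, adjusted p = 0.00998) and Tyrobp (8.73 ± 0.96 to 16.7 ± 3.46 CPM, adjusted p = 0.0201). Without CAC replicate 3, C1qa and C1qb alone were called, and Tyrobp was also not called without CTR replicate 2 or CAC replicate 4. Fcer1g, Tyrobp and Ptprc on this list are not restricted to macrophages, and the cells that held these transcripts cannot be told apart in whole tissue. Ctss, the cathepsin kept out of the members, stood at a log2 fold change of 0.81 (adjusted p = 0.0548 in edgeR), larger than the value of every member, and was called without CAC replicate 1 or 4 and with no filter on low counts. Csf1r was called without CTR replicate 3 and with no filter, and Ptprc with no filter. The defining marker Adgre1, which encodes F4/80, lay between 0 and 2.44 CPM, and Adgre1, Cd14, Mpeg1, Itgam, Trem2 and Gpnmb did not pass the filter, of which Adgre1 and Mpeg1 were at 0 in CTR replicates 1 and 3 respectively and Mpeg1 and Trem2 in CAC replicate 2. The summed level of the 19 markers was 256 to 295 CPM in CTR and 368 to 515 CPM in CAC, with no overlap. Their part in the values of the lysosomal genes was not tested.

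The summed level of 12 neutrophil markers was 12.0 to 15.2 CPM in CTR and 174 to 444 CPM in CAC. S100a9, S100a8 and Retnlg were called among the 4 tested, against 0.739% of all tested genes called higher. Their log2 fold changes were 5.45, 5.57 and 3.40. These values rest on few CTR reads, 2 to 9, 8 to 18 and 1 to 5 counts per library. With a filter of at least 10 counts in every library none of the 3 was tested, and the 1 neutrophil marker left, Mmp9, was not called. Retnlg was also not called without CTR replicate 1, 2 or 4. S100a8 and S100a9 are abundant in neutrophils but not restricted to them, and the cells that held these transcripts cannot be told apart in whole tissue. The sum of the other 10 markers was 6.84 to 9.32 CPM in CTR and 19.5 to 40.0 CPM in CAC. After rounding to whole counts, Mpo and Elane, which define neutrophil precursors, were at 0 in all CTR libraries and at most 0.54 and 1.06 CPM in CAC. The sum of 8 skeletal muscle genes was 1120 to 2729 CPM in CTR and 2460 to 4510 CPM in CAC, and that of 5 erythrocyte genes was 6180 to 19266 CPM in CTR and 14631 to 44312 CPM in CAC, with positive values in all 13 genes. None of them was called by edgeR and 9 were higher at an unadjusted p below 0.05, against 7.01% of all tested genes. The smallest p belonged to Pvalb (log2 fold change 1.05), Myh4 (1.30) and Tnnt3 (1.13) in muscle and to Hbb-bt (1.66), Alas2 (1.66) and Hba-a1 (1.47) in erythrocytes. Of the 13 genes, DESeq2 called Pvalb and Myh4, limma-trend on the deposited signal called Pvalb, Myh4, Tnnt3, Tnnc2, Hba-a1 and Hba-a2, and edgeR called Pvalb without CTR replicate 3. Of the 11 brown or general adipocyte markers, 10 were tested and edgeR called none. At an unadjusted p below 0.05 in edgeR's test, 1 was higher and 3 were lower, against 7.01% and 5.93% of all tested genes. Plin1 (-0.27), Cox8b (-0.22) and Cox7a1 (-0.22) had the smallest p. Ppara, the higher one, was called without CTR replicate 4 and with no filter on low counts. Of 7 endothelial markers tested Esam alone was called (log2 fold change 0.62, edgeR adjusted p = 0.0201), against 0.739% of all tested genes called higher. Esam was not called without CTR replicate 1 or 2 or CAC replicate 2 or 4, and Kdr and Pecam1 stood at -0.32 and 0.26. Of 8 fibroblast and progenitor markers edgeR called none, and 1 was higher at an unadjusted p below 0.05, against 7.01% of all tested genes. The smallest p belonged to Cd34 at 0.69 (edgeR adjusted p = 0.0623), Dpt at -0.28 and Col3a1 at -0.59. Cd34 was called without CAC replicate 1 or 4 and with no filter on low counts, and Col3a1 without CAC replicate 3. The part of these cells in the lysosomal values was not tested.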

How the data were processed

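One single-end RNA library was sequenced per mouse, 4 from CTR and 4 from CAC BAT. The authors checked reads with FastQC 0.11.9, aligned them to mm10 with HISAT2 2.2.1 and assigned them to genes by featureCounts, keeping multi-mapped reads. The deposited count table holds expected counts, not normalized, in which fractions of reads appear in 25.1% to 28.4% of the values above 0. The authors analysed the counts with DESeq2. A deposited table of normalized signal served an alternative only, and 100.0% of its values checked equal the truncated count divided by 1 size factor per library, within 0.01 reads.

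After rounding to whole reads, CAC was compared with CTR in edgeR 4.0.16 under R 4.3.3 (filterByExpr, TMM, quasi-likelihood test with robust fits, Benjamini-Hochberg adjustment over 9876 genes, threshold 0.05). The script was tested on simulated data. Members below the filter were compared by an exact permutation test over 70 assignments. Depth per library was 1823167 to 4827956 counts. Gene positions come from GENCODE M21 on GRCm38, matched by Ensembl ID without version, and promoters from RefSeq on GRCm38.p6. Tables used pandas 2.3.3 and numpy 2.4.6, and plots matplotlib 3.10.9, under Python 3.11.15.

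The members and lists were chosen with earlier results of these data known. Values in every library are given for members with an adjusted p below 0.05, members whose groups do not overlap and those with the next smallest p, 24 in all with Glb1, and from each other list for called genes and the 3 with the smallest p, by their fold change. Npc2, Ddx3y, Tfeb, Mpo, Elane, Mmp9, Csf1r, Ptprc, Ppara, Adipoq, Fabp4, Lep, Retn, Tnnc2, Hba-a2 and the filtered macrophage markers were named outside this rule. Other settings were upper quartile or library size normalization, DESeq2 1.42.0, a filter of at least 10 counts in every library or none, a replicate block, each library left out, limma-trend (limma 3.58.1) on log2 of the signal plus 1, truncated counts, a threshold of 0.1 and the promoter window before the start only.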

Additional observations from a re-analysis of the deposited data

Results flagged for a closer look

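In 6 of 100 groups of 4 libraries, 1 library stood far from the other 3 of its group by Dixon's criterion at 95%. Chance gives such a gap in about 1 in 20 groups, which is 5 of 100 here. In CAC, Gm2a was at 91.9 CPM in replicate 1 against 134 to 136.7 CPM in the others, Hexa was at 24.1 CPM in replicate 4 against 29.2 to 29.6 CPM, and Scarb2 was at 122.8 CPM in replicate 3 against 137 to 140.1 CPM. In CTR, Ctsz was at 103.0 CPM in replicate 4 against 87.8 to 89.6 CPM, Ctsk was at 3.32 CPM in replicate 3 against 1.60 to 1.80 CPM, and Lgmn was at 5.06 CPM in replicate 2 against 2.16 to 2.49 CPM. Ctsk and Lgmn rest on few reads.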

How the results depend on the processing

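The count of members called, 0 in the reported fit, was 1 with no low count filter, 1 at a threshold of 0.1 and 0 to 1 when each library was left out; that member was Gm2a each time, and it was called among these 8 fits without CAC replicate 1 only. The count of members lower at an unadjusted p below 0.05, also 0, was 1 with upper quartile normalization, 1 with no filter and 0 to 1 with a library left out. The count higher at that level, 5, was 3 to 6 with a library left out, with the 3 in the fit without CTR replicate 1. It was 4 with DESeq2, with library size or upper quartile normalization and with no filter. It was also 4 with the filter of at least 10 counts, the replicate block and limma-trend, which could not test Gm2a. With truncated counts it stayed at 5. Of the other lysosome genes, 1 was called in the reported fit, 0 with library size normalization and 0 to 1 with a library left out. Of the macrophage markers, 4 were called in the reported fit, 7 with no filter and 2 to 5 with a library left out. The median log2 fold change of the members was 0.08 to 0.11 under the other settings and 0.07 to 0.14 with a library left out. Called genes in all numbered 92, 351 with no filter, 110 with DESeq2 and 42 to 135 with a library left out. The causes were not tested.

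The log2 fold change of Npc2 ranged from -0.23 to 0.41 with a library left out. Of the 24 members given in every library by the stated rule, none changed direction under any setting that was run. Npc2, given outside that rule, turned negative without CAC replicate 1. The labels do not say whether replicate numbers pair the mice. Deviations of same-numbered libraries correlated at 0.03, -0.02, 0.03 and 0.04 over the tested genes, which cannot exclude a pairing that touches some genes. With the replicate number as a block, 0 members were called, their median was 0.08, 4 were higher at an unadjusted p below 0.05, and 140 genes were called in all, with 4 of the 8 skeletal muscle genes (Pvalb, Myh4, Tnnt3 and Tnnc2) among them, and libraries did not all correlate best with their own number. The promoter window before the start held CACGTG in 37.1% of members instead of 40.0%. At 3 counts per 0.66 to 1.62 CPM, depth limits what can be said of Ctsk, Lgmn, Gla and Manba.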

Other observations

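Gm2a, the member with the smallest p, has a row in the deposited count table and none in the authors' normalized table, which lists the other 36 tested members. Of 27673 genes in the count table whose symbol is Gm followed by a digit, the normalized table lists 0, and 617 of them were among the genes tested here. Most symbols of that form name predicted genes, whereas Gm2a names the GM2 activator. In all, 899 of the 9876 tested genes have no row in the normalized table. Whether symbols were the reason that rows were left out was not tested.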
